A study of Homo sapiens with 10 samples.

Results

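Voltage-gated sodium channels and HCN channels set how readily a neuron fires. Here 8 genes that encode their subunits were followed in SH-SY5Y cells, a line grown from a human neuroblastoma that has noradrenergic features. They are the pore-forming sodium channel genes SCN2A, SCN3A, SCN8A and SCN9A, the sodium channel beta subunit genes SCN2B and SCN3B, and the pacemaker channel genes HCN2 and HCN3. Each was taken from the single probe set that the platform annotation assigns to that gene alone, and all 8 were found among 14232 named genes on 22011 probe sets. The cells were stably transfected with SOD1(G93A), a mutant superoxide dismutase found in familial amyotrophic lateral sclerosis (ALS), or with wild-type SOD1. RNA was measured on 5 exon arrays per line, and both lines grew in serum with G418, which keeps the transfected DNA. The arrays are called here by the sample numbers in their titles, 3, 9, 12, 15 and 18 for SOD1(G93A) and 2, 8, 11, 14 and 17 for wild-type SOD1. The labels do not say whether a line was 1 clone or a pool, nor whether the 5 samples of a line were separate cultures. The p-values cover the spread among these arrays alone, and part of that spread may be technical. The construct cannot be told apart from any other difference between the lines.

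A sodium channel consists of a large alpha subunit, which forms the pore and senses voltage, and of smaller beta subunits, which tune gating and bring the channel to the membrane. Opening of these channels drives the rising phase of the action potential, and their anchoring at the axon initial segment sets where it starts. SCN3A (Nav1.3) is known mainly from the fetal brain and SCN2A (Nav1.2) from later stages, while SCN8A (Nav1.6) is the main channel of mature nodes of Ranvier and SCN9A (Nav1.7) is found in sensory and sympathetic neurons. HCN channels open on hyperpolarization and carry the pacemaker current. Cyclic AMP strongly eases the opening of HCN2 and has little effect on HCN3.

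RefSeq promoters are shown for the gene with the clearest change, SCN2A, and for HCN3, whose difference was larger but varied widely between arrays. Both SCN2A start sites and the HCN3 start site are given from 250 bases before to 50 bases after the start, from GRCh38.p14, on the strand of the gene, which is the plus strand in all cases. Capitals mark matches to CCAAT, to TATAAA or to GGGCGG (the GC box) on either strand.

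SCN2A, first start site, chr2:165239164-165239463: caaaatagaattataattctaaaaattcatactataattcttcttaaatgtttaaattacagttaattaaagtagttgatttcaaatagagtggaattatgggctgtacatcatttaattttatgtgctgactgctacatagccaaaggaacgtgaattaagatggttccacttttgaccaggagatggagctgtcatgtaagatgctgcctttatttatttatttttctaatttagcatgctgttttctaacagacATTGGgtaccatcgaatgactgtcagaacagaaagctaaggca

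SCN2A, second start site, chr2:165240810-165241109: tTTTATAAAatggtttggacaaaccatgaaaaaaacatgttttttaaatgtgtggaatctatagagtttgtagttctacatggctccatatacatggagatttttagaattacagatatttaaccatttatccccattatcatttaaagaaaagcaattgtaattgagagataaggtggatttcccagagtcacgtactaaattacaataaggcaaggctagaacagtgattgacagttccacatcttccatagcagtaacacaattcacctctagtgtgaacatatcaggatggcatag

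HCN3, chr1:155277213-155277512: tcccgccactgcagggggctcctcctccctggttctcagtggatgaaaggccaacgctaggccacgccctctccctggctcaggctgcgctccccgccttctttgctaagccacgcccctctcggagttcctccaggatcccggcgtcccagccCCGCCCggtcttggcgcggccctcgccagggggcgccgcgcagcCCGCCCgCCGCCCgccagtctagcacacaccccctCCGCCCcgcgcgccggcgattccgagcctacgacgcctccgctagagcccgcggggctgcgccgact

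The SCN2A windows were poor in G and C, at 31.7% and 33.3%, against a median of 58.7% over 35116 RefSeq promoters of this length. The HCN3 window held 74% G and C and 35 CpG dinucleotides, against 2 and 1 in the SCN2A windows. The first SCN2A window matched CCAAT once, a motif found in 34.6% of all the promoters. The second matched TATAAA on both strands at overlapping places near its upstream end, and 11.5% of the promoters hold that motif. The HCN3 window matched GGGCGG 4 times, a motif found in 44.95% of the promoters. Promoter entries were found for 6 of the 8 genes, and not for SCN3A or SCN3B. In their 7 windows there was no match to CAGCACC or GGACAGC, parts of the RE1 element that the repressor REST binds, which 7.75% and 6.03% of the promoters hold. With shares this low, a lack of matches in 7 windows says little. Sequence outside the windows was not searched, so whether these genes hold an RE1 element was not tested. These matches describe letters in a window and are not binding sites.

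A pair of opposite changes stood out among the 8 genes. SCN2A was higher and SCN3A lower in SOD1(G93A) cells, and the other 6 genes did not pass the test. All values are log2 intensities as deposited by the authors, and each fold change is the SOD1(G93A) mean minus the wild-type mean. A gene counted as changed at an adjusted p of 0.05 or less by limma, with p-values adjusted over all 22011 probe sets by the Benjamini-Hochberg method. By that rule 1 of the 8 genes was higher and 1 lower, while 7.46% of all probe sets passed (3.24% higher and 4.23% lower), as did 9.6% of named genes (4.03% higher and 5.57% lower). With 8 genes, a share of 25% rests on 2 calls. None of the 8 reached the 2-fold change that the labels also ask for, which 0.872% of probe sets did. All 8 genes lay above the lower quartile of the probe sets in every array, a mark of 3.84 to 3.89 below which differences are compressed.

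SCN2A encodes the alpha subunit Nav1.2. Its log2 intensity was 5.80, 5.63, 5.63, 5.67 and 5.73 in SOD1(G93A) samples 3, 9, 12, 15 and 18, against 5.40, 5.17, 5.30, 5.37 and 5.31 in wild-type SOD1 samples 2, 8, 11, 14 and 17. Every SOD1(G93A) array was above every wild-type array, and SCN2A was the 1 gene of the 8 whose groups did not overlap, as was so for 11.4% of named genes. The means were 5.69 ± 0.07 in SOD1(G93A) and 5.31 ± 0.09 in wild-type SOD1 (SD, n = 5 each). SCN2A rose by 0.38 on the log2 scale (SE 0.06, 95% interval 0.25 to 0.51, adjusted p = 0.00256 by limma), or 1.30-fold. The change was modest for a gene that passed, since the median absolute log2 change over the named genes that passed was 0.45. It passed without any 1 array, with adjusted p up to 0.00848. A further probe set, assigned to SCN1A and SCN2A together, read 2.24 to 2.38 in SOD1(G93A) and 2.22 to 2.49 in wild-type SOD1, below the lower quartile in all arrays.

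SCN3A encodes Nav1.3, a close relative of Nav1.2. It read 5.80, 5.88, 5.87, 5.84 and 6.05 in SOD1(G93A) samples 3, 9, 12, 15 and 18, against 6.21, 6.04, 6.22, 6.30 and 6.08 in wild-type SOD1 samples 2, 8, 11, 14 and 17. The groups met at 1 point, where SOD1(G93A) sample 18 was as high as wild-type sample 8, and the other 4 SOD1(G93A) arrays were below all the wild-type arrays. The means were 5.89 ± 0.10 in SOD1(G93A) and 6.17 ± 0.11 in wild-type SOD1 (SD, n = 5 each). SCN3A fell by 0.29 on the log2 scale (SE 0.07, 95% interval -0.44 to -0.13, adjusted p = 0.0298 by limma), to 82.1% of the wild-type level. This call was lost without SOD1(G93A) sample 3, 9, 12 or 15 or wild-type sample 2, 11 or 14 (adjusted p up to 0.0759), and the change stayed between -0.33 and -0.25 without any 1 array. SCN2A and SCN3A have similar coding sequences, and whether their probes pick up each other was not tested.

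The plot of values by array shows these 2 genes beside the 6 that did not pass.

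**Figure D1:**
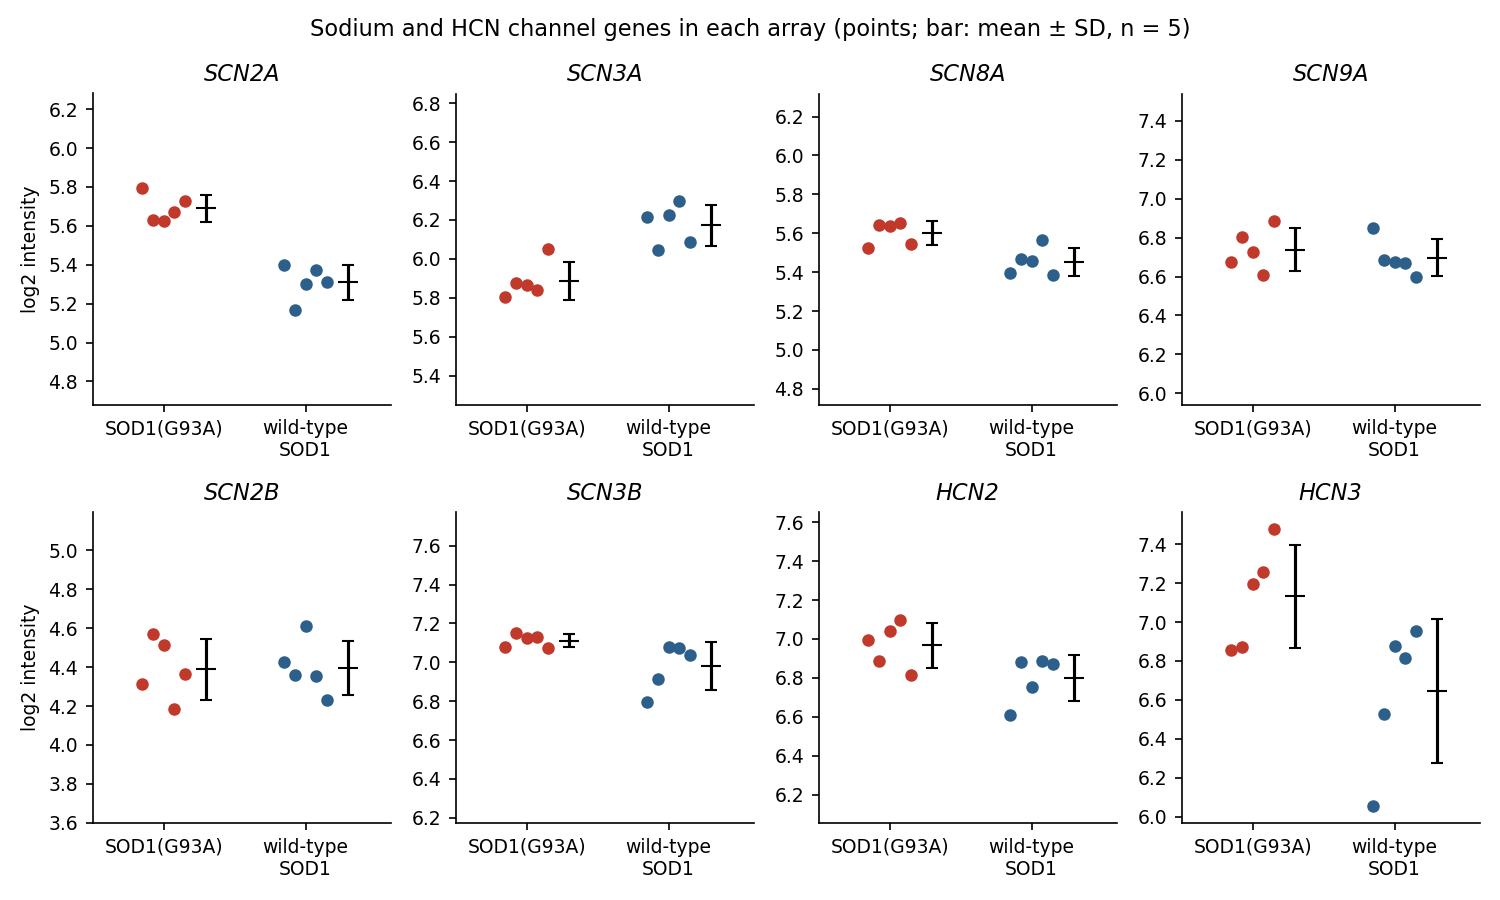
Log2 intensity (vertical axis, each panel spanning the same range of 1.6) of the 8 channel genes in the 5 SOD1(G93A) arrays (red) and the 5 wild-type SOD1 arrays (blue), with the mean and SD as a bar beside each group. SCN2A is the 1 panel in which the groups do not overlap, SCN3A overlaps at 1 point, and HCN3 has the widest spread.

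SCN8A encodes Nav1.6. It read 5.52, 5.64, 5.64, 5.65 and 5.55 in SOD1(G93A) samples 3, 9, 12, 15 and 18, against 5.39, 5.47, 5.46, 5.57 and 5.39 in wild-type SOD1 samples 2, 8, 11, 14 and 17. The groups overlapped through wild-type sample 14. The log2 difference was 0.15 (SE 0.05, 95% interval 0.03 to 0.27) and missed the threshold (adjusted p = 0.166 by limma).

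SCN9A encodes Nav1.7, the channel of sympathetic and pain-sensing neurons, and its groups lay on top of each other. It read 6.67, 6.80, 6.72, 6.61 and 6.88 in SOD1(G93A) samples 3, 9, 12, 15 and 18, against 6.85, 6.69, 6.68, 6.67 and 6.60 in wild-type SOD1 samples 2, 8, 11, 14 and 17. The log2 difference was 0.04 (95% interval -0.11 to 0.19, adjusted p = 0.838 by limma). The interval leaves room for a rise about as large as the SCN8A difference, and for a smaller fall.

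SCN3B encodes the beta3 subunit, which binds the alpha subunit without a covalent bond. It read 7.08, 7.15, 7.13, 7.13 and 7.07 in SOD1(G93A) samples 3, 9, 12, 15 and 18, against 6.79, 6.92, 7.08, 7.07 and 7.04 in wild-type SOD1 samples 2, 8, 11, 14 and 17. The SOD1(G93A) arrays were close together, and wild-type samples 2 and 8 were the low ones. The difference of 0.13 (SE 0.06, 95% interval -0.01 to 0.27) did not pass (adjusted p = 0.310 by limma). Without wild-type sample 2, the lowest array, it was 0.09 (adjusted p = 0.505).

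SCN2B encodes the beta2 subunit, which is tied to the alpha subunit by a disulfide bond. It read 4.31, 4.57, 4.51, 4.18 and 4.37 in SOD1(G93A) samples 3, 9, 12, 15 and 18, against 4.43, 4.36, 4.61, 4.36 and 4.23 in wild-type SOD1 samples 2, 8, 11, 14 and 17. Arrays of both lines were mixed through the same range. The difference was -0.01 (95% interval -0.21 to 0.19, adjusted p = 0.983 by limma).

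HCN2, the cyclic AMP-sensitive pacemaker channel gene, read 6.99, 6.89, 7.04, 7.10 and 6.81 in SOD1(G93A) samples 3, 9, 12, 15 and 18, against 6.61, 6.88, 6.75, 6.89 and 6.87 in wild-type SOD1 samples 2, 8, 11, 14 and 17. Its groups overlapped through SOD1(G93A) samples 9 and 18. The difference of 0.17 (SE 0.08, 95% interval -0.0018 to 0.34) did not pass (adjusted p = 0.275 by limma).

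HCN3 had the largest difference of the 8 genes and the largest spread. It read 6.86, 6.87, 7.20, 7.26 and 7.48 in SOD1(G93A) samples 3, 9, 12, 15 and 18, against 6.05, 6.53, 6.88, 6.81 and 6.96 in wild-type SOD1 samples 2, 8, 11, 14 and 17. Wild-type sample 2 was the lowest, and SOD1(G93A) samples 3 and 9 lay within the wild-type range. In each line HCN3 was lowest in the lowest-numbered sample and highest in the highest-numbered one. The means were 7.13 ± 0.27 in SOD1(G93A) and 6.65 ± 0.37 in wild-type SOD1 (SD, n = 5 each), against a median SD over all probe sets of 0.14 and 0.13. The difference of 0.49 (SE 0.18, 95% interval 0.08 to 0.89) did not pass (adjusted p = 0.167 by limma), and its SE was larger than that of 97.1% of named genes. Without wild-type sample 2 the difference was 0.34 (adjusted p = 0.26). SCN8A and HCN3 had an unadjusted p under 0.05, as did SCN2A and SCN3A, making 4 of 8 against 21.7% of named genes.

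Other genes of the family gave no call. The 6 further sodium and HCN channel genes analysed were SCN4A, SCN7A, SCN10A, SCN11A, SCN4B and HCN4, and 0 of them passed by limma, with 0 at an unadjusted p under 0.05 and 0 by the unmoderated model. Their log2 differences ran from -0.11 in SCN4B (SE 0.10), the beta4 subunit gene, to 0.03 in SCN11A (SE 0.05), a channel gene of sensory neurons. SCN7A, SCN10A and SCN11A stayed under that lower quartile in all 10 arrays, where differences are compressed. SCN7A, an atypical channel of glia and other cells, read 2.09 to 2.23 in SOD1(G93A) and 2.08 to 2.41 in wild-type SOD1. SCN10A, another sensory neuron channel gene, read 2.74 to 2.82 in SOD1(G93A) and 2.71 to 2.97 in wild-type SOD1, and SCN11A 2.64 to 2.79 in SOD1(G93A) and 2.67 to 2.75 in wild-type SOD1. SCN4A, the skeletal muscle channel gene, read 3.93 to 4.05 in SOD1(G93A) and 3.98 to 4.14 in wild-type SOD1, and HCN4, the main pacemaker channel gene of the heart, 4.81 to 5.10 in SOD1(G93A) and 4.82 to 5.13 in wild-type SOD1.

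**Figure D2:**
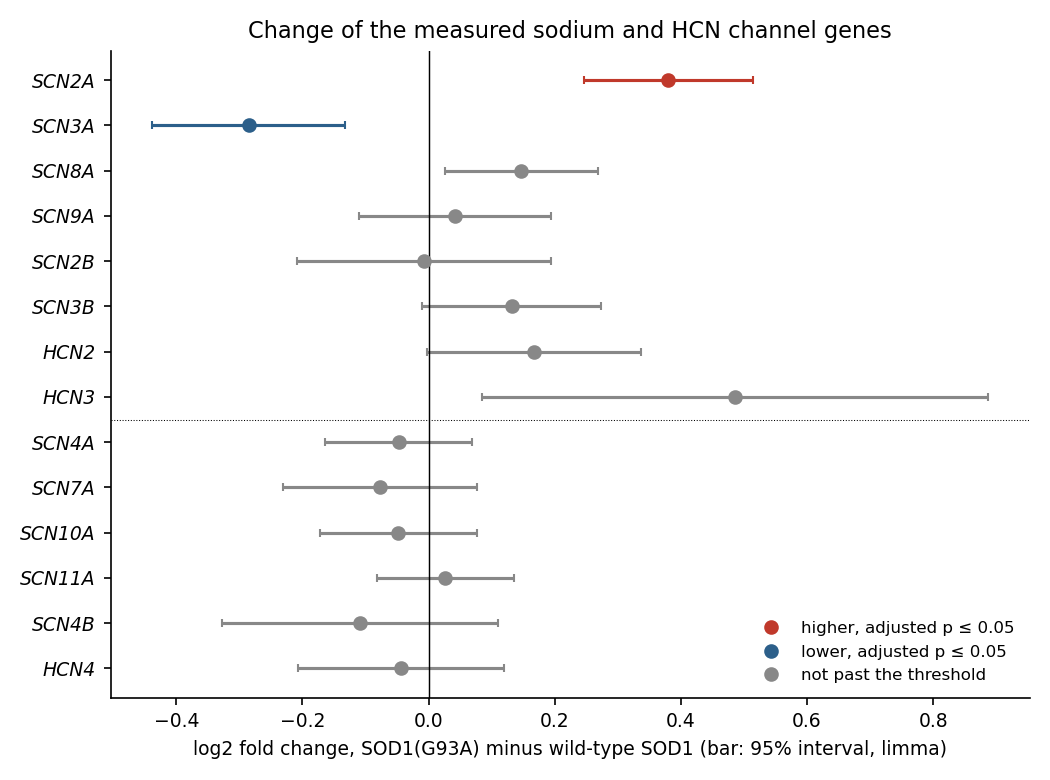
Log2 fold change, SOD1(G93A) minus wild-type SOD1, of the 8 channel genes (above the dotted line) and of 6 related genes (below it), with 95% intervals from limma. SCN2A (0.38, red) and SCN3A (-0.29, blue) passed the threshold, and the HCN3 interval, 0.08 to 0.89, was the widest.

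Pairs of relatives were then compared, to ask whether 2 genes of a subfamily changed unequally. For 4 pairs, the log2 value of 1 gene minus that of the other was taken in each array and compared between the lines by a 2-sided exact permutation test, whose smallest possible p is 0.00794. SCN2A minus SCN3A was -0.20 ± 0.12 in SOD1(G93A) and -0.86 ± 0.07 in wild-type SOD1 (SD, n = 5 each). The balance of these 2 genes moved toward SCN2A by 0.67 on the log2 scale, with no overlap between the lines (exact permutation p = 0.00794, adjusted over the 4 pairs 0.0317). This shift combines the 2 opposite changes given above, from the same arrays, and is not separate support for either. With 9 arrays the adjusted p could not go below 0.0635, and the shift was 0.62 to 0.70. SCN8A minus SCN9A moved by 0.11, SCN2B minus SCN3B by -0.14 and HCN2 minus HCN3 by -0.32. Their groups overlapped, and none of the 3 passed (exact permutation p = 0.246, 0.198 and 0.135, each 0.246 after adjustment).

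SCN3A and SCN2A lie side by side on chromosome 2, in the order of RefSeq genes of GRCh38.p14, and SCN9A and SCN7A lie near them. The nearest measured genes, 5 on either side of each, included 9 that are not among the 8 genes, with differences from -0.38 to 0.14 and a median of -0.05. KCNH7, a potassium channel gene, was the 1 of these that passed and fell by 0.38 (SE 0.08, adjusted p = 0.0169 by limma), with a mean of 3.58 in SOD1(G93A) and 3.96 in wild-type SOD1. It was a dim gene, under the lower quartile in 5 SOD1(G93A) arrays and 1 wild-type SOD1 array, so the size of its change is compressed. CSRNP3, next to SCN2A on its far side from SCN3A, differed by 0.02 (SE 0.09), and SLC38A11, next to SCN3A on its far side from SCN2A, by 0.05 (SE 0.07). Neither gene that flanks the pair passed the threshold. SLC38A11 was under the lower quartile in 5 SOD1(G93A) and 5 wild-type SOD1 arrays, where differences are compressed, so its value says little about a change.

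**Figure D3:**
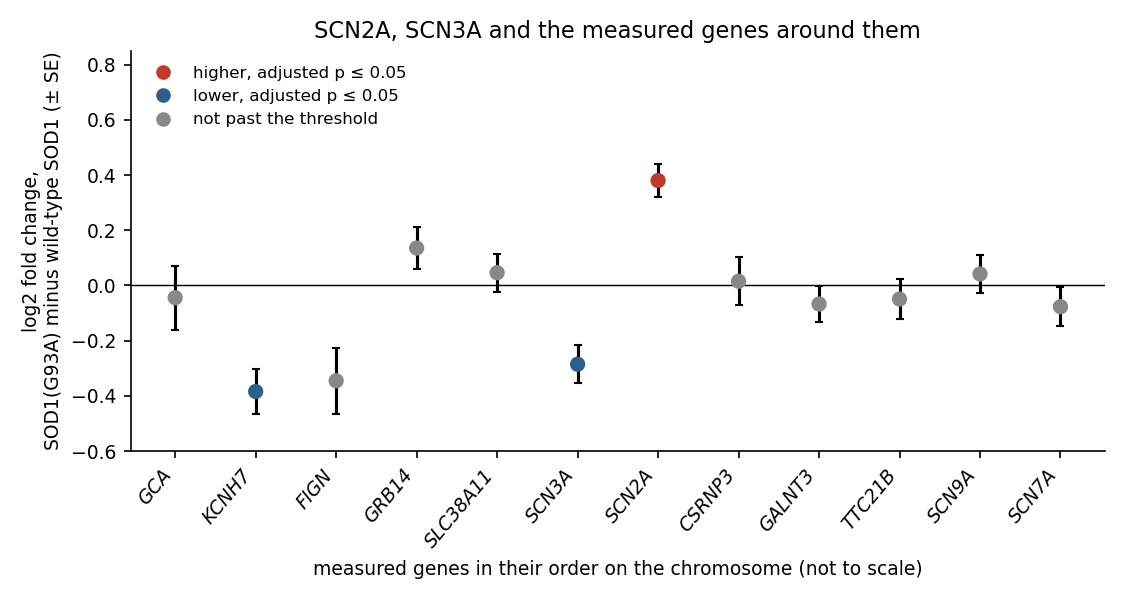
Log2 fold change, SOD1(G93A) minus wild-type SOD1, with SE, of SCN3A, SCN2A and the measured genes around them, in chromosomal order with equal spacing. SCN3A (-0.29) and SCN2A (0.38) moved in opposite directions, and of the 9 other genes that are not among the 8, KCNH7 passed the threshold.

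The named genes whose values over the 10 arrays were most like those of SCN2A were STMN4, a stathmin, with a Pearson r of 0.97, PRPH, the intermediate filament peripherin, with 0.96, and PRICKLE1, a planar polarity gene, with 0.96. For SCN3A they were LMTK2, a membrane-bound kinase, with 0.98, CDKAL1, a tRNA-modifying enzyme, with 0.97 and HERC3, a ubiquitin ligase family gene, with 0.97. These values describe likeness among 14232 genes, and the group difference enters each of them. Taken on deviations from each line's mean, r was 0.72, 0.63 and 0.61 for the genes like SCN2A and 0.94, 0.93 and 0.89 for those like SCN3A.

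A list of genes linked to anchoring at the axon initial segment and the node held changes in both directions. Of 9 measured genes of this list, 2 rose and 3 fell (55.6% in all, against 9.6% of named genes), with a median change of -0.17, while the median of all named genes was -0.0043. NRCAM, a cell adhesion molecule of nodes, read 8.50 to 8.77 in SOD1(G93A) and 9.89 to 10.23 in wild-type SOD1 and fell by 1.40 (SE 0.08, adjusted p = 1.14e-06 by limma). Its partner NFASC, neurofascin, read 4.99 to 5.21 in SOD1(G93A) and 5.57 to 5.65 in wild-type SOD1 and fell by 0.54 (SE 0.06). ANK2, an ankyrin, rose by 0.45 (SE 0.07), and CNTN1, a contactin that binds sodium channels, rose by 0.49 (SE 0.08). In NRCAM, NFASC, ANK2 and CNTN1 no array of one line overlapped the other. The same held for ANK3 and CNTN2, which did not pass. That made 6 of 9 genes without overlap, against 11.4% of named genes. SPTBN1, a beta spectrin, fell by 0.52 (SE 0.13, adjusted p = 0.0400), a call lost without SOD1(G93A) sample 3, 9, 12 or 15 or wild-type sample 2, 14 or 17 (adjusted p up to 0.0934). ANK3, which encodes ankyrin G, the organizer of the axon initial segment, read 3.81 to 3.90 in SOD1(G93A) and 3.92 to 4.25 in wild-type SOD1. It lay near the lower quartile and did not pass (-0.17, adjusted p = 0.180 by limma). SPTBN4, another beta spectrin, did not pass either (0.12, SE 0.06, adjusted p = 0.286 by limma).

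REST, the repressor that keeps sodium channel and other neuronal genes low outside neurons, was lower in SOD1(G93A) cells. It read 6.75 to 7.09 in SOD1(G93A) and 7.37 to 7.62 in wild-type SOD1, with no overlap, and fell by 0.60 (SE 0.08, adjusted p = 0.000589 by limma). Of the 9 measured genes of its complex, 2 fell and 0 rose, with a median of -0.02. That is 22.2% of the list called lower, against 5.57% of named genes, and it rests on 2 calls. The other was KDM1A, a histone demethylase of the complex, which fell by 0.32 (SE 0.08, adjusted p = 0.0415), a call lost without any 1 of 8 arrays (all but wild-type sample 8 and SOD1(G93A) sample 18, adjusted p up to 0.100). RCOR1, the corepressor that joins them, differed by 0.01 (SE 0.07). SCN2A rose and SCN3A fell beside the lower REST level, and the part of REST in either was not tested.

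Of 8 measured genes that handle sodium beside the channels, 3 fell and 0 rose (37.5%, against 5.57% of named genes called lower), with a median of -0.14. ATP1B2 and ATP1B1, beta subunits of the sodium pump, fell by 0.89 (SE 0.07, adjusted p = 2.45e-05 by limma) and 0.37 (SE 0.07, adjusted p = 0.0105). SLC8A3, a sodium-calcium exchanger, read 6.15 to 6.32 in SOD1(G93A) and 6.97 to 7.21 in wild-type SOD1 and fell by 0.88 (SE 0.06, adjusted p = 5.65e-06). NALCN, the sodium leak channel gene, was below the lower quartile in all arrays (2.47 to 2.59 in SOD1(G93A) and 2.45 to 2.57 in wild-type SOD1). The alpha subunits of the pump had no probe set of their own and were not analysed here.

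The list of channel traffic, turnover and phosphorylation and that of splicing regulators each held 1 call among 9 measured genes, a share of 11.1% that is near the 9.6% of named genes. In the first of them PRKCA, a protein kinase C that phosphorylates sodium channels, fell by 2.30 (SE 0.09, adjusted p = 1.17e-07 by limma), at 5.05 to 5.40 in SOD1(G93A) and 7.31 to 7.70 in wild-type SOD1. The ubiquitin ligases NEDD4L and NEDD4, which remove sodium channels from the membrane, differed by 0.10 (SE 0.07) and 0.00 (SE 0.07). Of the splicing regulators of sodium channel exons, MBNL2 rose by 0.60 (SE 0.07, adjusted p = 0.000233 by limma). MBNL1, its relative, was at -0.19 (SE 0.06, adjusted p = 0.0781 by limma) and passed in the unmoderated model (adjusted p = 0.0431), which made 2 calls in this list. Among 10 measured partners of HCN channels 0 passed by limma or by the unmoderated model, with 1 at an unadjusted p under 0.05, PEX5L (TRIP8b), the main auxiliary subunit in brain, at -0.17 (SE 0.08, adjusted p = 0.255). PEX5L and KCNE2 were each under the lower quartile in 9 arrays, and 3 of the 10 partners were under it in all arrays, where differences are compressed. Neither of 2 measured FGF homologous factors, FGF11 and FGF12, which bind the tail of sodium channels, passed by limma or by the unmoderated model, and 0 had an unadjusted p under 0.05 (differences 0.10 and 0.03). FGF12 was under the lower quartile in all 10 arrays, so its difference is compressed.

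**Figure D4:**
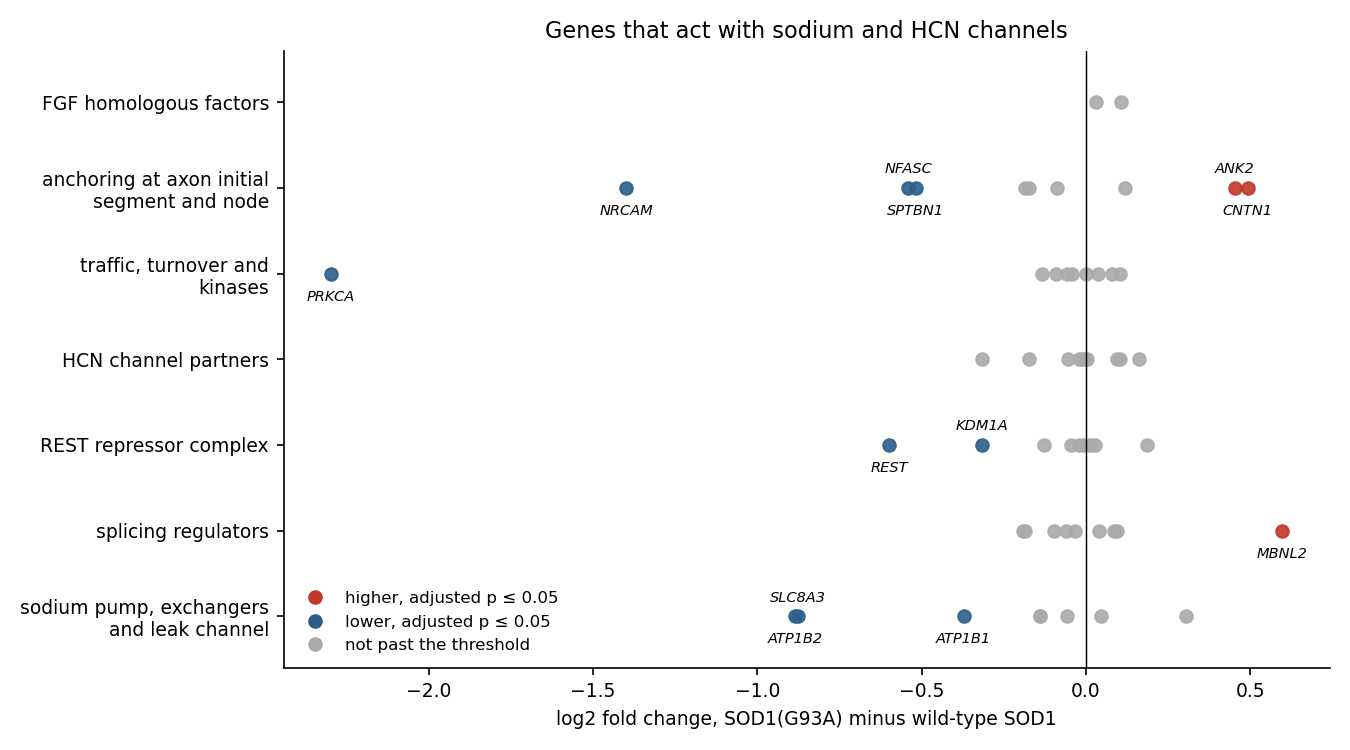
Log2 fold change, SOD1(G93A) minus wild-type SOD1, of each measured gene in 7 lists of genes that act with sodium and HCN channels (1 point per gene). Named red points passed the threshold upward and named blue points downward, from PRKCA at -2.30 to MBNL2 at 0.60, and grey points did not pass.

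Across the arrays, medians lay between 6.26 and 6.34. SOD1 itself read 9.55 ± 0.09 in SOD1(G93A) and 9.78 ± 0.13 in wild-type SOD1 (SD, n = 5 each). The log2 difference of -0.23 did not pass by limma (adjusted p = 0.107). An exact permutation test of SOD1 alone, not adjusted over genes, gave p = 0.0159, and 0.0159 to 0.0317 without any 1 array. The SOD1 probe set sums over both forms of the sequence, so it does not check the labels. Markers of noradrenergic neuroblastoma cells were present, with STMN2 at 12.05 to 12.34 in SOD1(G93A) and 12.21 to 12.32 in wild-type SOD1, and of 7 measured 1 rose (TBX2) and 1 fell (GATA3). The TBX2 call was lost without any 1 of 6 arrays, SOD1(G93A) samples 3, 12 and 15 and wild-type samples 2, 8 and 14 (adjusted p up to 0.0633 by limma). Of 10 markers of the mesenchymal, substrate-adherent state, 4 rose (VIM, FN1, YAP1 and CD44) and 1 fell (SNAI2, by 1.03), which is 50% of the list against 9.6% of named genes. Their mean level overlapped between the lines, at 6.44 to 6.58 in SOD1(G93A) and 6.33 to 6.48 in wild-type SOD1. Of 6 Schwann and glial markers 1 rose (16.7%, against 9.6% of named genes), S100B by 0.73 (SE 0.11). S100B was under the lower quartile in 4 wild-type SOD1 arrays, and 2 of the 6 markers were under it in all arrays. The list means were 4.042 to 4.219 in SOD1(G93A) and 3.998 to 4.027 in wild-type SOD1. The median change of the list was -0.04, with 4 of the 6 genes lower by sign, and SOX10 differed by -0.04. None of 5 muscle markers or of 6 immune and endothelial markers passed by limma or the unmoderated model. In either list 0 had an unadjusted p below 0.05. PTPRC, CD3E and PECAM1 were below the lower quartile in all arrays and CDH5 in 3 arrays, while CD14 and VWF were below it in none. Of the muscle markers, MYL2 was below it in all arrays, and DES, MYOD1, MYOG and ACTA1 in none. VIM, FN1, YAP1, CD44 and S100B were higher and SNAI2 lower in the line with more SCN2A and less SCN3A, and their part in either was not tested. In bulk RNA, fewer cells with a transcript and less of it per cell cannot be told apart.

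**Figure D5:**
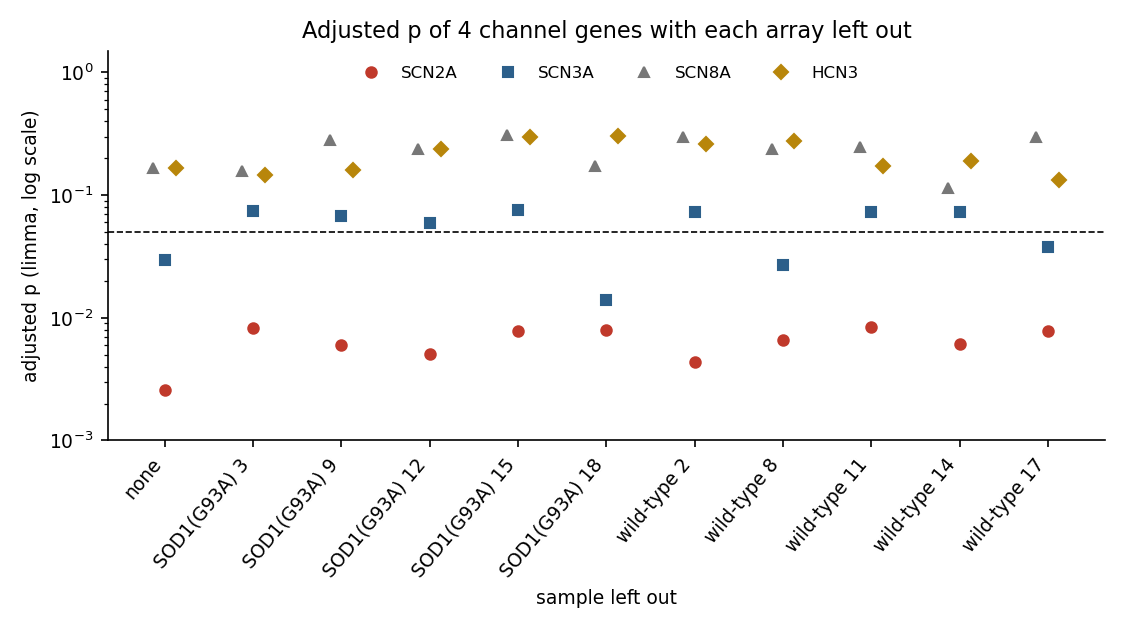
Adjusted p by limma (log scale) of SCN2A, SCN3A, SCN8A and HCN3 with all arrays (none) and with each array left out in turn, against the threshold of 0.05 (dashed line). SCN2A stayed below the line throughout, SCN3A crossed it in 7 of 10 omissions (up to 0.0759), and SCN8A and HCN3 stayed above it.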

How the data were processed

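RNA of 10 SH-SY5Y samples was measured on Affymetrix exon arrays. The deposited table holds log2 intensities at gene level, which the authors made with RMA per the submitters' processing notes, working in oneChannelGUI 1.6.5 per the labels. RMA subtracts background and makes array distributions alike, so it hides a shift shared by all genes, and it compresses differences of dim probe sets. The build and filters were not given in the sources used here, and no detection calls were used.

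Of 22011 probe sets, 14432 had 1 gene symbol in the platform annotation, 2408 had several and 5171 had none. Symbols were updated through gene identifiers against RefSeq (GRCh38.p14), where 28 single-symbol probe sets had no match, and the probe set with the highest mean stood for each of 14232 named genes. Each of the 8 channel genes had 1 such probe set. Groups came from the sample titles.

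Groups were compared with limma 3.58.1 under R 4.3.3, by a linear model with empirical Bayes moderation (2-sided, no filter on level, Benjamini-Hochberg adjustment over all probe sets), at the false discovery rate of 0.05 that the labels state. Differences between pairs of genes, and the level of SOD1, were tested by exact permutation in SciPy 1.17.1. The number of arrays limits the precision. Alternatives were filters on dim probe sets, the set of probe sets adjusted over, centring, quantile normalization, no moderation, a trended robust fit, array weights, each array left out, samples 17 and 18 left out together, and, added after seeing the data, neighbouring sample numbers as a block. The 8 genes and all gene lists were chosen with earlier results of these data known. Genes named were the channel genes, up to 4 called genes per list (SPTBN1 and genes that did not pass were named after their values were seen), neighbours and the 3 most similar genes of each called gene.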

Additional observations from a re-analysis of the deposited data

How the results depend on the processing

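SCN2A passed under every alternative that kept its probe set, the block below included, with changes from 0.34 to 0.40 without any 1 array and adjusted p of 0.000962 to 0.0203 under 8 other settings. SCN3A was lower in every fit that kept it, from -0.33 to -0.25 without any 1 array and from -0.35 to -0.29 under 8 other settings (adjusted p 0.0150 to 0.0357), and lost its call in 7 of 10 omissions, so that the count of lower genes ran from 0 to 1. Restricting to probe sets above the median level left 0 genes called higher and 0 called lower, because SCN2A and SCN3A lie below that level. The SCN2B difference changed sign without some single arrays (-0.053 to 0.046), and that of SCN9A was -0.0192 without samples 17 and 18 together. The SCN2A minus SCN3A shift was 0.62 to 0.70 without any 1 array, with an exact permutation p of 0.0159, the smallest that 9 arrays allow. HCN3 did not pass under any of the settings so far (adjusted p 0.0856 to 0.304). The calls of SPTBN1 and KDM1A were lost in the unmoderated model (adjusted p 0.0842 and 0.0629), and that of SPTBN1 without samples 17 and 18 together (adjusted p = 0.0550). Over the whole array 1643 probe sets passed, and 1267 to 1754 did so under the alternatives that had no block. No other probe set was assigned to any of the 8 genes alone, so that alternative was not run. The groups share no sample number and the labels pair no samples, but the titles alternate the lines in neighbouring numbers (3 with 2, 9 with 8, 12 with 11, 15 with 14 and 18 with 17). Over all probe sets, deviations from the group means correlated at -0.0343 to 0.142 within these pairs. Of 10 arrays, 3 correlated best with their neighbour in the other line. This check gave no clear sign of pairing over the array as a whole. It cannot exclude pairing, and it does not cover sets of genes or single genes such as HCN3. With the neighbouring numbers as a replicate block, 2 of the 8 genes were called higher and 0 lower. HCN3 passed at 0.49 (adjusted p = 0.0238 by limma), and its SE was 0.09, against 0.18 without the block. SCN2A passed (adjusted p = 0.0123), and SCN3A (adjusted p = 0.112) and SCN8A (adjusted p = 0.201) did not. Of 26 other genes called in the lists and among neighbours and similar genes, 6 were not called with the block (KDM1A, ATP1B1, TBX2, VIM, KCNH7 and LMTK2), and 1213 probe sets passed. The block and the settings for partner genes were chosen after seeing the data.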
